A study of Mus musculus with 2 samples.

Results

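The genes described here are 6 transcription factor genes that act in the olfactory neuron lineage before the neuron matures: Neurog1, Neurod1, Insm1, Pax6, Tead2 and Sox2. They were chosen by name, with earlier results of these data known. All 6 were found among the 21755 protein-coding genes that GENCODE mouse release 21 places on chromosomes 1 to 19 and X. Chromatin contacts were mapped by in situ Hi-C in mature olfactory sensory neurons of adult mice, isolated by cell sorting from olfactory epithelium of the OMP-GFP line. In these animals green fluorescent protein marks cells that use the olfactory marker protein gene. The labels give the strain 129P2/OlaHsd, mixed sex, and neither treatment nor modification, and they name 2 biological replicates of 1 group, made from 3000000 and 1500000 cells. The authors pooled both replicates before they called boundaries, so no value below has a spread between replicates and no difference could be tested.

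New olfactory neurons arise throughout life from basal cells of the olfactory epithelium. Sox2 and Pax6 act in the stem and early progenitor cells, Neurog1 in the neuronal precursors that follow, and Neurod1 and Insm1 as these cells leave division and begin to differentiate. Tead2 binds DNA as the partner of the coactivators Yap1 and Wwtr1, which regulate growth. A chromatin boundary is a border between neighbouring stretches of chromosome that contact mainly themselves, here called domains, and it can limit which enhancers reach a promoter. The cells mapped were past the stage at which most of these factors act. The boundary list holds no expression, so neither the silence of these genes nor the identity of the sorted cells was measured.

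The boundary list held 8058 intervals of 5 kb, 4092 of them in the authors' Strong class (50.8%) and 3966 in the Weak class. Each had the authors' strength, a score without a stated scale that ran from 0.2 to 4.32 with a median of 0.509. Weak boundaries scored under 0.5 and Strong ones over it. Contact depth is unknown here, so how many faint boundaries a deeper map would add or drop is unknown too.

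A boundary lay directly on the promoter of Tead2. Another lay between the RefSeq start sites of Pax6 and covered the starts of 10 of its 26 GENCODE transcripts. The bases before the RefSeq start sites of both genes are shown for that reason. The sequences are those of RefSeq on GRCm38.p6, all on the plus strand, 5′ to 3′, and cover the 250 bases before each start, with each CpG in capitals. RefSeq promoters were matched for 5 of the 6 genes, all but Insm1. The Tead2 window (chr7:45215542-45215791) lies wholly inside the boundary interval. The upstream Pax6 window (chr2:105668646-105668895) lies on the near side of the boundary, and the downstream Pax6 window (chr2:105682213-105682462) on the far side.
Tead2: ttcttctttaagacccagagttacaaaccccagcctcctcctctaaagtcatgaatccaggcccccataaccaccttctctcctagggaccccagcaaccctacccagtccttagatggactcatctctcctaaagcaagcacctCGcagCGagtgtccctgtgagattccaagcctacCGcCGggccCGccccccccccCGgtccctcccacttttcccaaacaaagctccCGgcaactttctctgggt
Pax6 upstream start: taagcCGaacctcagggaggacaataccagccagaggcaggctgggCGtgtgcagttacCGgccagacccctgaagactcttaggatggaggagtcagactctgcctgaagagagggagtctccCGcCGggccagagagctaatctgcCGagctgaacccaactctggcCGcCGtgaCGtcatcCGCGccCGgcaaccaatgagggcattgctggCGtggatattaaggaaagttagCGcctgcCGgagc
Pax6 downstream start: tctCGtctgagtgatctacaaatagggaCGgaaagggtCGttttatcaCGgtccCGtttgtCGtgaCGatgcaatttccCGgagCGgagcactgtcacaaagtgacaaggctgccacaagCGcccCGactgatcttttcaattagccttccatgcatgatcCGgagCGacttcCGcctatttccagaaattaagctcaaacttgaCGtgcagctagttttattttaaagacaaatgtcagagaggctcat
The Tead2 window held 7 CpGs, close to the median of 6 over 32619 RefSeq promoters, and 46.6% of promoters held at least as many. Each Pax6 window held 15 CpGs, a number reached by 27.5% of promoters. The other genes with a match were richer: the same window held 29 CpGs at Neurog1, 27 at Sox2 and 22 at Neurod1, which 6.82%, 8.62% and 14.9% of promoters reached.

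The nearest boundary lay at a median of 22.5 kb from the transcription start site (TSS) of the 6 genes, against 60 kb over all coding genes, a difference that was not tested. Distances are counted between 5 kb bins, so 0 kb means the same bin. The nearest boundary lay at 0 kb from the TSS of Tead2, 10 kb from Pax6, 20 kb from Insm1, 25 kb from Neurog1, 40 kb from Sox2 and 55 kb from Neurod1. The shares of all coding genes that lay as near or nearer were 3.16%, 12.8%, 21.2%, 25.3%, 37.1% and 48.6% in that order. These distances are from the outermost start of each gene. Counted from every transcript start, Pax6 lay at 0 kb, and the median of the 6 genes stayed at 22.5 kb. A boundary thus lay within 20 kb of the TSS of 3 of the 6 genes, against 21.2% of coding genes. The count rests mainly on faint boundaries, since a Strong boundary lay that near only at Tead2, against 13.7% of coding genes. With the window set at 50 kb the count was 5 of 6, against 44.9%. Counted from the gene body the 20 kb window also took 3 of 6, against 35.0%.

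**Figure D1:**
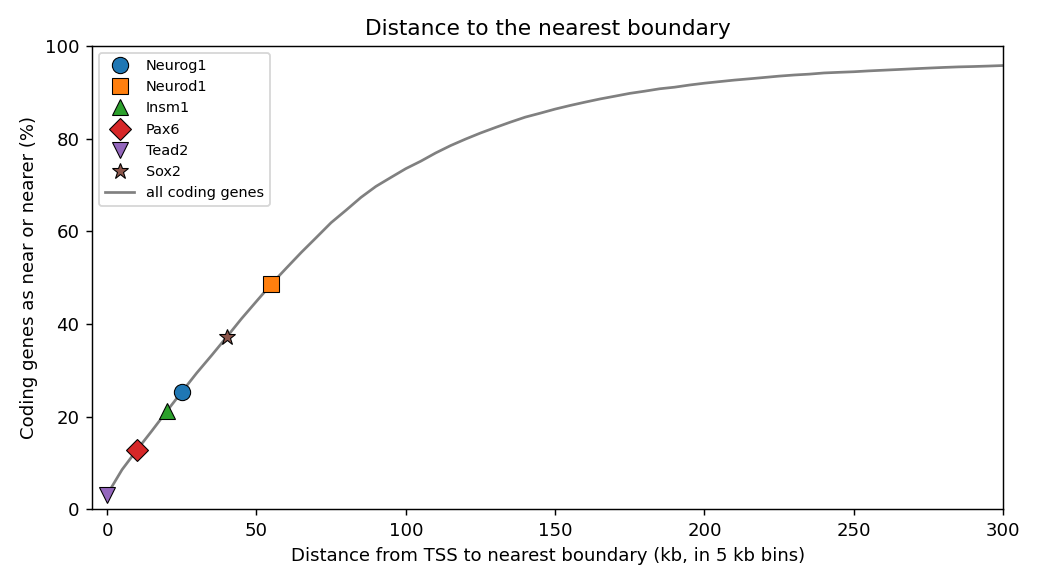
Distance from the TSS to the nearest boundary (x axis, kb) and the share of coding genes that lie as near or nearer (y axis, percent); the line shows all 21755 coding genes and each symbol is a regulator gene. Tead2 sits at 0 kb and Neurod1, the farthest of the 6 from a boundary of either class, at 55 kb.

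The nearest boundaries differed widely in strength. That of Tead2 scored 1.02 and ranked 1719 of 8058, with 21.3% of boundaries as strong. Those of Sox2 (0.771, rank 2622) and Neurod1 (0.687, rank 3021) were also Strong. The nearest boundary was Weak at Insm1 (0.380, rank 5068), Pax6 (0.235, rank 7226) and Neurog1 (0.212, rank 7742). The last of these was among the faintest in the list, with 96.1% of boundaries as strong.

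Together the 6 genes had 13 flanking boundaries, the nearest on each side plus that in the Tead2 bin, and no boundary was shared between them. Of these 13, 7 were Strong and 6 Weak, close to the 50.8% Strong in the whole list, and they scored 0.212 to 1.02 with a median of 0.606. Only the boundary at Tead2 reached the top 25% of strengths, which began at 0.928. Each of the 5 genes without a boundary in its TSS bin, all but Tead2, had a Strong boundary on one side and a Weak boundary on the other. This arrangement was found for 48.7% of coding genes. The nearer of both boundaries lay upstream of the TSS in 4 of these 5 (Neurog1, Neurod1, Insm1 and Sox2), against 51.7% of coding genes. These arrangements of side and class were noticed after the values were seen, and counts of 5 genes describe these genes only.

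**Figure D2:**
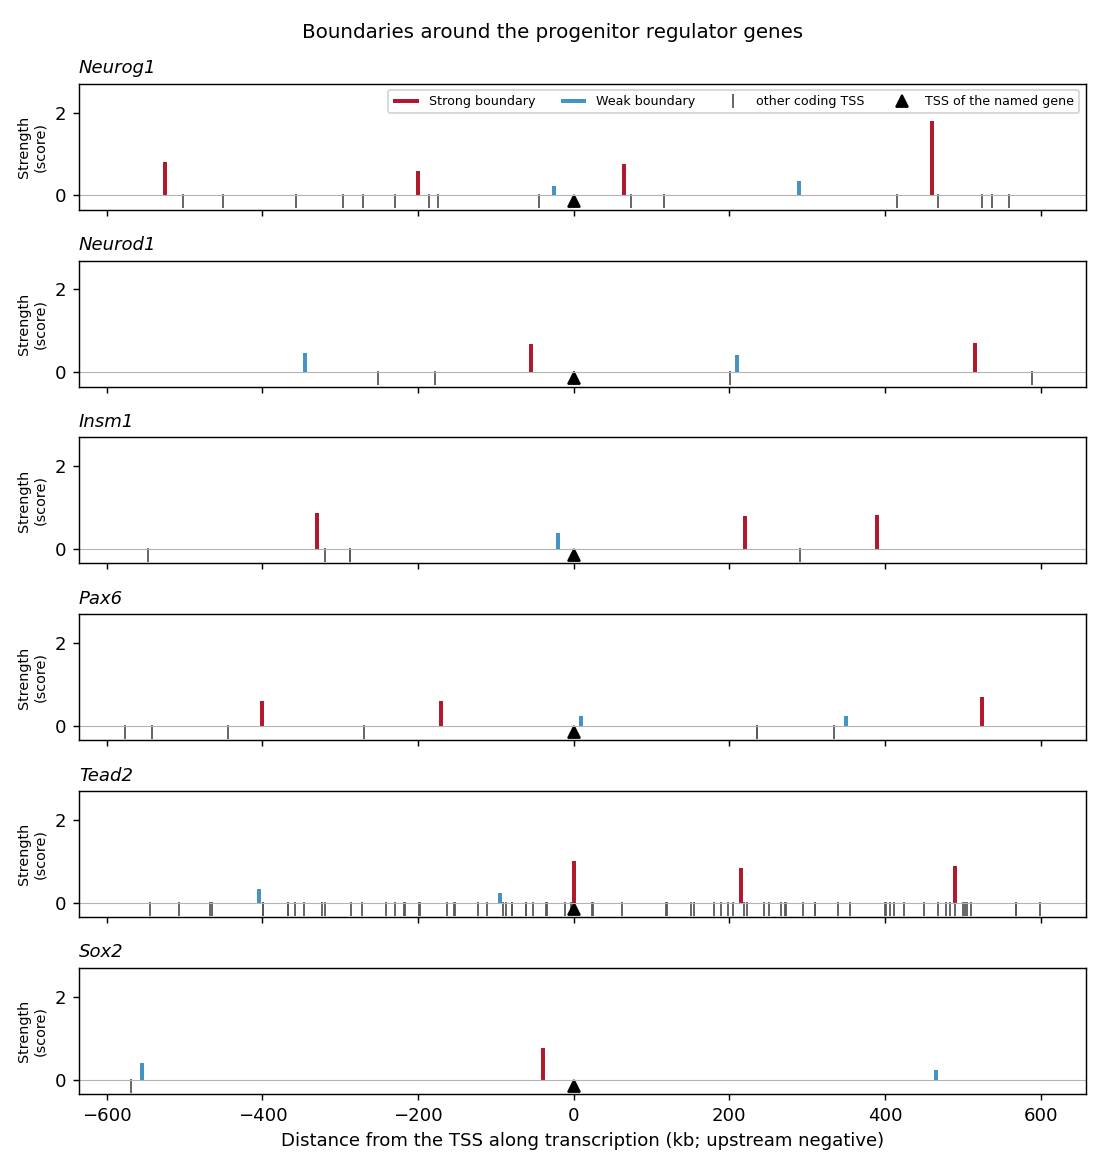
Boundaries within 600 kb of each regulator gene, drawn at their distance from the TSS along the direction of transcription (x axis, kb) with bar height as the authors' strength (y axis, score); red bars are Strong and blue bars Weak, ticks below the line are other coding TSSs and the triangle is the named gene. The Tead2 neighbourhood is dense in gene starts, while that of Sox2 is empty of them from its Strong boundary at 40 kb upstream to its Weak boundary at 465 kb downstream.

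**Figure D3:**
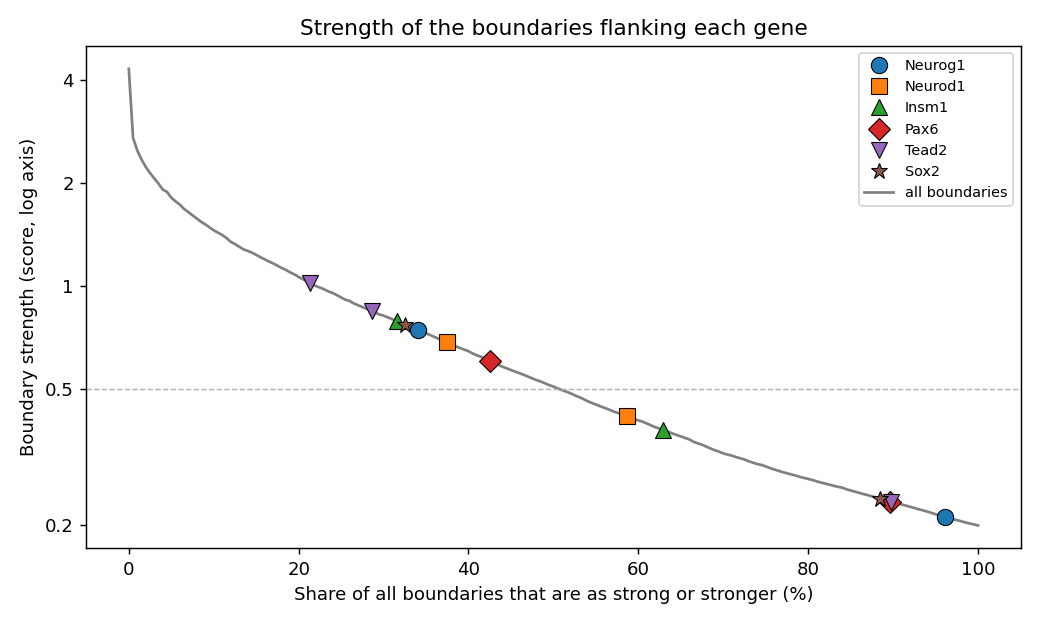
Strength of the flanking boundaries (y axis, score on a log axis) against the share of all 8058 boundaries that are as strong or stronger (x axis, percent); symbols are the boundaries of each gene, the grey line is the whole list and the dashed line is the class limit of 0.5. Tead2 has the strongest of the 13 at 1.02 and Neurog1 the weakest at 0.212.

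Coding neighbours were then counted by domain. A domain was taken as the stretch between the nearest boundaries on either side of the TSS, measured from bin to bin, and Tead2, whose TSS lies in a boundary bin, was set aside here. Neurog1, Insm1, Pax6 and Sox2 were each the only coding TSS in their domain, which in each also held noncoding starts. These 4 of 5 compare with 9.55% of the 20851 coding genes that have a single domain, and the domain of the median coding gene held 5 coding starts. Domain size varied among the 5 from 90 to 505 kb, with a median of 240 kb against 275 kb over coding genes. Among all coding genes whose domains measured 90 to 505 kb, the share alone in their domain was 9.50%. Pax6 counts as alone only by its outermost start: placed by the middle of its body, it shares a domain with 3 other coding TSSs. Placed that way, 3 of 6 genes were alone, an alternative chosen after seeing the data. No share of coding genes was computed for that placement, so 9.55% is not its background. With Strong boundaries only, Sox2 was the only gene of the 5 in a domain without another coding TSS, against 3.81% of coding genes.

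**Figure D4:**
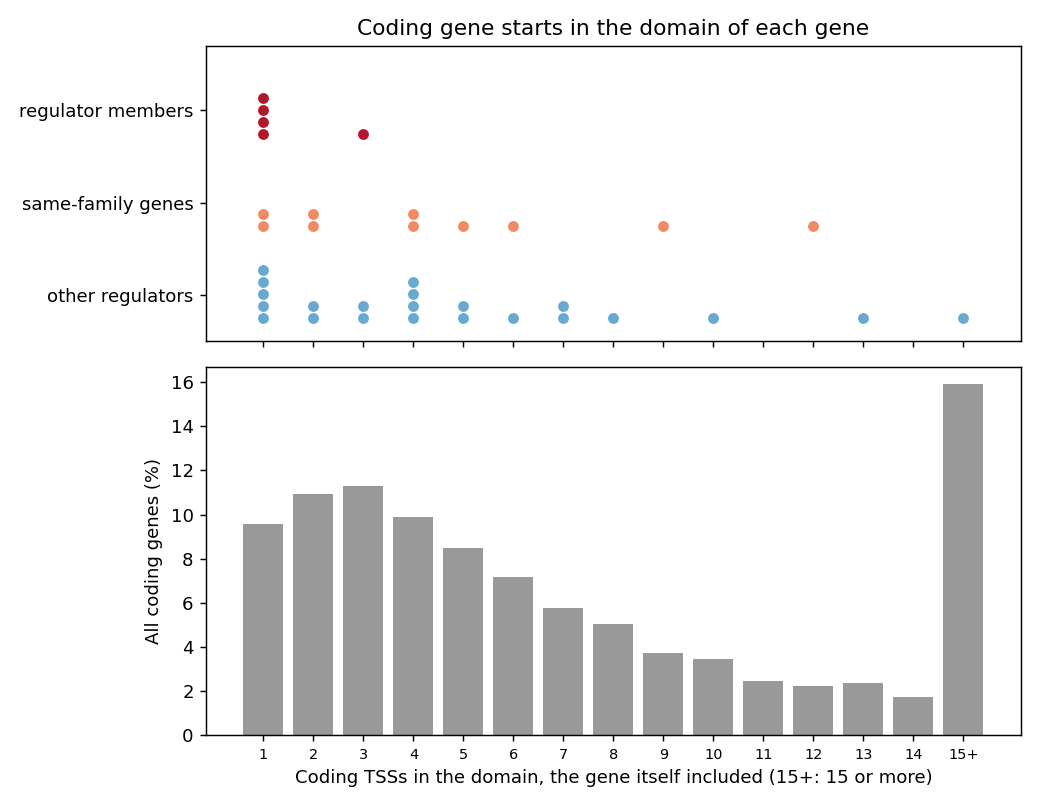
Number of coding TSSs in the domain of each gene (x axis, the gene itself included), with a point per gene for the regulators, their same-family genes and other regulators of olfactory progenitors (upper panel) and the percent of all coding genes (lower panel, y axis). Of the 5 regulators with a single domain 4 stand at 1 and Neurod1 at 3; genes with a boundary in the TSS bin or outside the outermost boundaries are not drawn.

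Sox2, which encodes an HMG-box factor of stem cells, lay on chromosome 3 at 34650405 to 34652461 on the plus strand, in the largest domain of the 6 genes. Its Strong upstream boundary (34610001 to 34615000, strength 0.771) lay 40 kb away and its Weak downstream boundary (35115001 to 35120000, strength 0.239) 465 kb away. The domain measured 505 kb, and 87.2% of all domains were that small or smaller, while 16.0% of coding genes had a domain of 500 kb or more. Its starts were Sox2 and 3 lincRNA genes, Gm3143, Gm38509 and Gm21388. The nearest other coding TSS was that of Dnajc19, 569 kb upstream and past 2 boundaries, and on the other side that of Atp11b, 1104 kb away and also past 2. The upstream boundary lay inside Sox2ot, the long noncoding gene that hosts Sox2 in an intron. The Sox2ot record spans 578 kb in GENCODE, and the interval overlaps 2 of its exons, so its annotated first start at 34104270 lies on the other side of the boundary from Sox2.

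Pax6, which encodes a paired-domain and homeodomain factor, was divided by a boundary. The gene lay on chromosome 2 at 105668900 to 105697364 on the plus strand, and a Weak boundary (105675001 to 105680000, strength 0.235) lay inside it. The interval overlaps 14 annotated exons and no coding segment, so it covers introns and untranslated or noncoding exons. Of the 26 GENCODE transcripts of Pax6, 6 start before the interval, 10 inside it and 10 beyond it. The 2 RefSeq start sites whose upstream bases are shown above lie 6.11 kb before the interval and 2.46 kb past it. A boundary interval overlaps the bins of 12.0% of coding genes over 10 kb and up to 30 kb long, the range that holds Pax6 (28.5 kb) and Tead2 (17.9 kb), and of 15.9% of coding genes of any length.

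The outermost Pax6 start shared its domain of 180 kb with the starts of 2 noncoding genes, Pax6os1 and Paupar, and with no coding TSS. This domain ended upstream at a Strong boundary (105495001 to 105500000, strength 0.606), which separates it from Rcn1, a calcium-binding protein gene of the endoplasmic reticulum, 270 kb away. The rest of the Pax6 body lay in the next domain of 340 kb. That domain also holds the start and whole body of Elp4, an Elongator subunit gene whose introns are known to carry Pax6 enhancers, and the starts of Immp1l and Dnajc24. It ended at another faint boundary (106015001 to 106020000, strength 0.231). The Pax6 boundary is thus the only one in the list between the upstream start and Elp4, and 89.7% of boundaries were as strong or stronger.

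Tead2 was the gene of the 6 with a boundary in the bin of its outermost TSS and with many coding neighbours. It lay on chromosome 7 at 45215753 to 45233644 on the plus strand, and its TSS fell inside a Strong boundary interval (45215001 to 45220000, strength 1.02), as did those of 2.06% of coding genes, or 3.16% with boundaries of either class. Of its 17 transcripts, 13 start inside the interval and 4 beyond it, and the interval overlaps 17 annotated exons and 6 coding segments. The domain upstream measured 95 kb and held 10 coding TSSs, and the domain downstream measured 215 kb and held 11. The nearest coding TSS, that of Dkkl1, lay 3.61 kb upstream and the next on the other side, that of Cd37, a tetraspanin gene of immune cells, 23.4 kb downstream.

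The upstream Tead2 neighbours included Slc17a7, a vesicular glutamate transporter gene, and Gfy, which encodes a Golgi protein of olfactory neurons and starts 36.2 kb from Tead2. The boundary interval lies between these starts and the part of the Tead2 body downstream of the interval. That upstream domain ended at a Weak boundary (45120001 to 45125000, strength 0.235) near the ribosomal protein gene Rpl13a. The downstream domain held Trpm4, Snrnp70 and Ntf5 among others and ended at a Strong boundary (45430001 to 45435000, strength 0.847). These domains were rich in GC, at 52.7% upstream and 50.2% downstream, and the part of base composition in the result was not tested.

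Neurog1, which encodes a basic helix-loop-helix proneural factor, had the smallest domain of the 6 genes. It lay on chromosome 13 at 56250478 to 56252163 on the minus strand in a domain of 90 kb, and 0.871% of all domains were that small or smaller. Of coding genes, 0.657% had a domain of 90 kb or less. Its upstream boundary was Weak (56275001 to 56280000, strength 0.212, 25 kb away) and separates it from Cxcl14, a chemokine gene that starts 44.4 kb away. Its downstream boundary was Strong (56185001 to 56190000, strength 0.745, 65 kb away) and separates it from Tifab, which starts 73.3 kb away. The lincRNA gene 4930550C17Rik was the only other start annotated as coding or long noncoding in the domain. The small size rests on the faint boundary: with Strong boundaries only the domain was 265 kb and held 3 other coding TSSs.

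Insm1, a zinc finger factor gene, lay on chromosome 2 at 146221921 to 146225020 on the plus strand in a domain of 240 kb. Its Weak upstream boundary (146200001 to 146205000, strength 0.380) lay 20 kb from the TSS and its Strong downstream boundary (146440001 to 146445000, strength 0.789) 220 kb away. No other coding gene started in this domain, but the bodies of 2 reached in. Cfap61, a cilium gene, crosses the upstream boundary and ends before Insm1, and Ralgapa2, a GTPase-activating protein gene, crosses the downstream one. The nearest other coding TSSs, of Crnkl1 and Ralgapa2, lay 287 and 290.4 kb away on either side.

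Neurod1, a basic helix-loop-helix gene of differentiating neurons, was the farthest of the 6 from a boundary of either class. It was also the only one of the 5 that shared its domain with coding TSSs. With Strong boundaries only, Neurog1 (65 kb), Pax6 (170 kb) and Insm1 (220 kb) lay farther than Neurod1 (55 kb). Each of these then shared its domain with 3 other coding TSSs, and Neurod1 with 2. Neurod1 lay on chromosome 2 at 79452521 to 79456751 on the minus strand. Its Strong upstream boundary (79510001 to 79515000, strength 0.687) was 55 kb away and its Weak downstream boundary (79245001 to 79250000, strength 0.417) 210 kb away, which gives a domain of 265 kb. Its neighbours there were Cerkl, a ceramide kinase-like gene whose GENCODE record starts 34 bases from the Neurod1 TSS on the same strand, and Itga4, an integrin gene that starts 201 kb away beside the downstream boundary. The Cerkl record overlaps the whole Neurod1 gene, so these starts cannot be separated in bins of 5 kb. Neurod1, Pax6 and Insm1 share chromosome 2 but lie far apart, with 84 boundaries between Neurod1 and Pax6 and 137 between Pax6 and Insm1.

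Neurog1, Neurod1, Insm1 and Sox2 are compact, at 1.69 to 4.23 kb against a median of 17.4 kb over coding genes, and no boundary interval overlaps their bins. A boundary did so at 4.53% of coding genes of 5 kb or less. Of the 13 flanking boundaries, 8 had a coding TSS within 20 kb, against 37.6% of all boundaries. At the nearest boundaries of Insm1 and Pax6 that TSS was the gene itself, and 6 of the 13 had another coding TSS that near. The 13 were chosen for flanking coding genes, which favours a coding TSS nearby, so 37.6% is not a matched background. In the 25 kb around the 13 boundaries GC content ran from 39.3 to 53.4%. DpnII sites, where the chromatin was cut, ran from 1.76 to 3.20 per kb. The medians over all boundaries were 42.4% and 2.52 per kb. GC content lay above that median at the flanking boundaries of Neurog1, Pax6, Tead2 and Sox2. It lay below the median at those of Neurod1, and above it upstream and below it downstream of Insm1.

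CTCF, the zinc finger protein that stops cohesin at many boundaries, has a core consensus of 14 bases that was searched on both strands of the reference. An exact match within 20 kb was found at 2 of the 13 flanking boundaries, against 21.9% of all boundaries. The share was 30.3% among Strong boundaries, the class of 7 of the 13. Of the 3 matches, 2 lay near the Strong boundary downstream of Neurog1 and 1 near the Weak boundary upstream of Insm1. They are printed with the core in capitals and 3 reference bases on either side, because they are the only exact matches within 20 kb of the 13 flanking boundaries. All lie on the plus strand of GRCm38.p6.
Neurog1, outside the domain (chr13:56167644-56167663): gtgCCAGTAGGTGGCAGaga
Neurog1, inside the domain (chr13:56197687-56197706): ctgCCAGTAGATGGCGCgct
Insm1, inside the domain (chr2:146214919-146214938): attCCAGTAGGTGGCGCtag
The match inside the Neurog1 domain lay 7.69 kb from the boundary interval in intergenic sequence and pointed away from it. The match outside that domain lay 17.3 kb from the interval, in the snoRNA gene Gm25148, and pointed toward it. The Insm1 match lay 9.92 kb from the interval and 6.99 kb upstream of the Insm1 TSS, in an untranslated exon of Cfap61, and pointed away from the boundary. With 1 mismatch allowed, 12 of the 13 boundaries had a match, all but the upstream boundary of Neurod1. The shares were 76.3% of all boundaries and 84.4% of Strong ones. A match is a sequence only, and no binding was measured here.

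The same-family genes, a chosen subset of the families, were Neurog2, Neurog3, Neurod2, Neurod4, Neurod6, Insm2, Pax4, Tead1, Tead3, Tead4, Sox1 and Sox3. Sox4 and Sox11 were counted among the other regulators below. A boundary lay within 20 kb of the TSS of 2 of the 12 same-family genes, against 21.2% of coding genes. Both were TEA domain genes with Strong boundaries: Tead3 (strength 0.874, 5 kb) and Tead1 (strength 0.623, in the bin of the TSS). Tead4, the remaining gene of that family, lay 105 kb from its nearest boundary. Of the 10 same-family genes with a single domain, Neurog2 and Sox3 were the only coding TSS in it, against 9.55% of coding genes. Neurog2, like Neurog1, lay 25 kb from its nearest boundary, but that boundary was Strong (0.760) and its domain was 160 kb. Sox3 lay 40 kb from its nearest boundary, as did Sox2, while its domain measured 320 kb and that boundary was Weak (0.266).

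Other regulators of olfactory progenitors, 22 genes with the Notch pathway and Gdf11 among them, had a boundary in the 20 kb window at 5, against 21.2% of coding genes, a similar share. Sox4 (0.895, 5 kb) and Fst, a secreted antagonist of activin and related ligands (0.708, 10 kb), had Strong boundaries. The Notch ligand genes Jag1 (0.490) and Dll1 (0.374) and the Notch effector gene Hes1 (0.281) had Weak boundaries at 5 kb. Of these 22 genes, Hes1, Rbpj, Sox11, Kit and Runx1 were each the only coding TSS in their domain, against 9.55% of coding genes. The median nearest distance was 22.5 kb in the 6 regulators, 82.5 kb in their 12 same-family genes and 62.5 kb in the 22 others, against 60 kb over all coding genes, and no test of these differences was made.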

How the data were processed

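Boundaries were called by the authors on 1 contact matrix that combines both replicates on GRCm38, per the series design text and the submitters' processing notes. Neither the caller nor its version nor the mapper is named in the labels or the file. The deposited list gives 5 kb intervals, a class and a score of boundary strength with no stated scale, which was used only to rank boundaries within the list.

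Genes and the 5′ ends of their records came from GENCODE mouse release 21, and sequence from the RefSeq GRCm38.p6 reference, both of the list's build. Distances, domains and motif matches were computed with Python 3.11.15, numpy 2.4.6 and pandas 2.3.3. Of the coding genes, 687 with a boundary in the TSS bin and 217 outside the outermost boundaries of a chromosome have no single domain. The distance code was tested on simulated data and recovered 200 of 200 planted boundary pairs. All were planted outside the TSS bin, so a boundary in that bin, as at Tead2, was not simulated. Gene-body distances, neighbour counts and motif matches were not tested in this way.

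The genes and lists were chosen with earlier results of these data known. Named neighbours were all coding TSSs of a domain where it held at most 8 and otherwise the nearest, with examples. Alternatives were other windows, stronger boundaries, all transcript starts, distance in bases and a looser motif. Contact matrices and insulation tracks were not used here, and some genes of the lists are not reported here.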

Additional observations from a re-analysis of the deposited data

How the results depend on the processing

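Of 83 alternative values, 43 stayed within 5 kb, 5 percentage points or 1.5 times of the reported ones. With Strong boundaries only, the regulators with a boundary within 20 kb numbered 1 for the TSS and 1 for the gene body, and likewise 1 and 1 in the top 25% of strengths. With a window of 50 kb they numbered 5 and 5. The related genes with a boundary within 20 kb, 7 of 34, numbered 14 within 50 kb, 4 with Strong boundaries only and 0 in the top 25%. For the TSS, the shares of all coding genes were 21.2% within 20 kb, 44.9% within 50 kb and 13.7% with Strong boundaries only. No such share was computed for the top 25%, or for the gene body with Strong boundaries only or at 50 kb. The median nearest distance of 22.5 kb was 60 kb with Strong boundaries only and 767.5 kb in the top 25%. The median domain of 240 kb was 570 kb and 1890 kb in the same settings, and 252.5 kb when the middle of the gene placed it, a setting that adds Tead2. The median number of other coding TSSs in the domain was 0, and 3 with Strong boundaries only, where 1 gene in place of 4 was alone, an alternative chosen after seeing the data. Fewer boundaries lengthen distances and domains by construction. No median over all coding genes was computed with fewer boundaries, so these values have no counterpart here. With 1 mismatch allowed, 12 boundaries in place of 2 had a CTCF core match, as looser motifs must. No paired analysis was possible because boundaries came from the pooled matrix, so no replicate could be left out. Which Weak boundaries could be called depends on contact depth, which is unknown. The boundaries nearest to Neurog1, Pax6 and Insm1 are Weak.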
